A study of Caenorhabditis elegans with 4 samples.

Results

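The LIN-53 regions of chromosome V were the places on this autosome where chromatin immunoprecipitation with an antibody against LIN-53 gave a peak in either of 2 ChIP replicates. Every chromosome V peak of both replicate lists was taken, and peaks that shared at least 1 bp were joined into a region. This gave 419 regions out of 2662 on all 6 chromosomes (15.7%), made from 311 peaks of replicate 1 and 331 peaks of replicate 2. The rule takes every chromosome V peak, whatever its score, but earlier results of these data, among them the density and middle share of V, were known when the chromosome was chosen. The tests of those values are therefore not independent of that choice. A region is said to be in both lists when peaks of both replicates contributed to it.

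The animals were L3 larvae of the wild-type strain N2, a mixed population of males and hermaphrodites kept at 20 °C. No mutant or treatment was included. The antibody was an affinity-purified rabbit polyclonal. The series has 2 ChIP and 2 input DNA libraries, and the labels do not say whether the replicates were separate cultures, so differences between them can be technical as much as biological. Larvae were grown in bulk liquid culture and ground whole, so a region is an average over many animals and all their tissues.

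LIN-53 belongs to the family of RbAp histone chaperones, WD-repeat proteins that bind histones and serve as a subunit of several chromatin complexes. In the worm these include the DRM complex, which holds cell-cycle and germline genes down, and the NuRD remodelling complex. Worm autosomes have a central part that recombines rarely and is rich in conserved genes, and arms that recombine more and carry many repeats. Chromosome V is known for large families of chemoreceptor genes.

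The lists give intervals in WormBase build WS220 with a deposited score per peak, whose scale is not named. No read counts come with the intervals, so depth is unknown and a region in 1 list only cannot be read as a place without LIN-53 in the other replicate. Which genes lie there was not analysed here.

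Of the 419 regions, 204 were in both lists (48.7%, 95% exact interval 43.8 to 53.6%), 103 were in replicate 1 only and 112 in replicate 2 only. Over all chromosomes, 46.4% of regions were in both lists. The other 4 autosomes together had 989 of 2040 regions in both lists (48.5%, 46.3 to 50.7%). Chromosome V did not pass the test against them (Fisher's exact p = 0.957, adjusted p = 0.957 over the 10 tests made). The difference was 0.207 percentage points, and its sign changed with the way peaks were joined.

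Regions in both lists were the wide and high-scored part of the set. Their score in replicate 1 ran from 2.61 to 208.73 with a median of 24.3, and in replicate 2 from 2.05 to 223.91 with a median of 10.985. Regions in replicate 1 only had scores from 2.08 to 21.33 with a median of 6.73. Regions in replicate 2 only ran from 2.00 to 49.5 with a median of 5.345. Scores of the classes overlapped. No region in replicate 1 only reached the replicate 1 median of regions in both lists. Some regions in replicate 2 only did pass the replicate 2 median of 10.985, the highest with 49.5. Region width had a median of 199.5 bp in both lists, 88 bp in replicate 1 only and 53 bp in replicate 2 only. A joined region is at least as wide as each of its peaks, so single peaks are the fairer comparison. Where a region held 1 peak of each list, those peaks had median widths of 169.5 bp in replicate 1 and 164.5 bp in replicate 2. Peaks of at most 60 bp made up 73 of the 112 regions in replicate 2 only (65.2%) and 20 of the 103 in replicate 1 only (19.4%). The shortest peak of replicate 2 was 37 bp wide and that of replicate 1 was 50 bp, so the lists began at different widths.

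**Figure D1:**
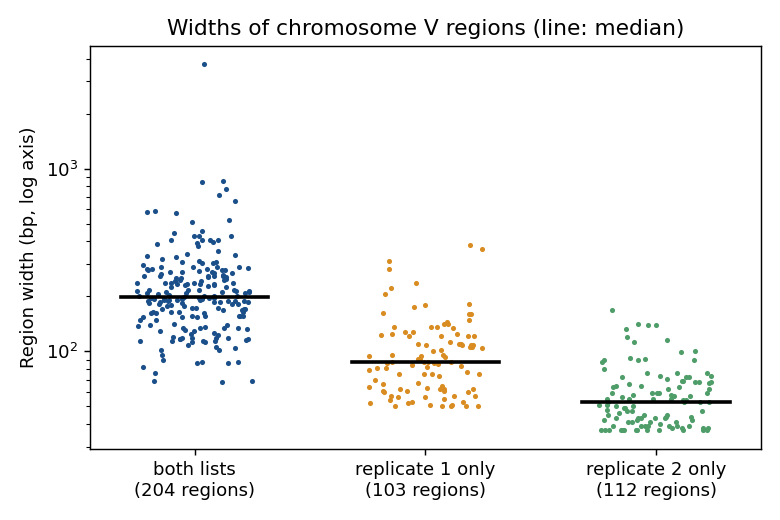
Width of each of the 419 chromosome V regions in bp on a log axis, by the list or lists it came from; points are regions and lines are medians. Regions in both lists centre on 199.5 bp, those in replicate 1 only on 88 bp and those in replicate 2 only on 53 bp.

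Among regions in 1 list only, the highest scores were modest in replicate 1 and included 1 high value in replicate 2. In replicate 1 only, the highest scores were 21.33 at 13962130 to 13962256 and 20.29 at 20158349 to 20158713. They were followed by the regions from 1151408 to 1151589 (18.11), 4731513 to 4731653 (17.29) and 11078472 to 11078619 (16.38). In replicate 2 only, the region from 12510211 to 12510379 scored 49.5 and stood far above the next, from 1074123 to 1074164, with 18.8. The next scores there were 17.05 at 16707736 to 16707783, 15.92 at 16708160 to 16708274 and 15.86 at 4333394 to 4333438. None of these 10 regions held a site of the series list, a further list that the authors deposited for the whole series, with entries named consistent sites. Such sites were rare in all regions in 1 list only, with 1 of 103 in replicate 1 only (0.97%) and 10 of 112 in replicate 2 only (8.93%). The share was 95 of 419 over all regions (22.7%) and 84 of 204 in both lists (41.2%). How the sites were chosen is not given, and whether the shares follow from that choice was not tested.

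The strongest regions were spread over the whole chromosome. The 12 with the best mean score percentile over both lists included 5 in the left outer section, 4 in the middle section and 3 in the right outer section, each of them 33.3% of the length. The region from 18533382 to 18533954 scored 208.73 in replicate 1 and 223.91 in replicate 2. Next came the region from 10897212 to 10897588, with 202.13 and 195.12. In these leading regions the replicates gave nearly the same score. A group of 3 strong regions lay close together on the left side. Of these, the region from 2421546 to 2421818 scored 163.59 in replicate 1 and 82.9 in replicate 2. Its neighbour from 2529829 to 2530099 had 150.18 and 77.7. A further neighbour from 2600617 to 2600906 had 134.24 and 48.2. In each of these 3, the score of replicate 1 was the higher.

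The other 7 of the 12 were the following, of which the first ranked 5, just ahead of the region from 2600617 to 2600906. The region from 5204051 to 5204456 scored 110.05 in replicate 1 and 73.9 in replicate 2, where it was called as 2 peaks. Scores were 110.05 and 57.9 at 9346859 to 9347180, and 106.29 and 63.3 at 773294 to 773573. Replicate 1 was again the higher in each of them. At 18967609 to 18967912 they were 95.3 and 82.6, and the peaks there began 2 bp apart and ended at the same base. The region from 7237180 to 7237439 had the most unequal scores of the 12, with 136.28 in replicate 1 and 36.03 in replicate 2. The last pair were the regions from 11000726 to 11001003, with 100.71 and 45.09, and from 15002126 to 15002423, with 74.2 and 69.7. Replicate 2 had the higher score in 1 of the 12, the leading one.

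**Figure D2:**
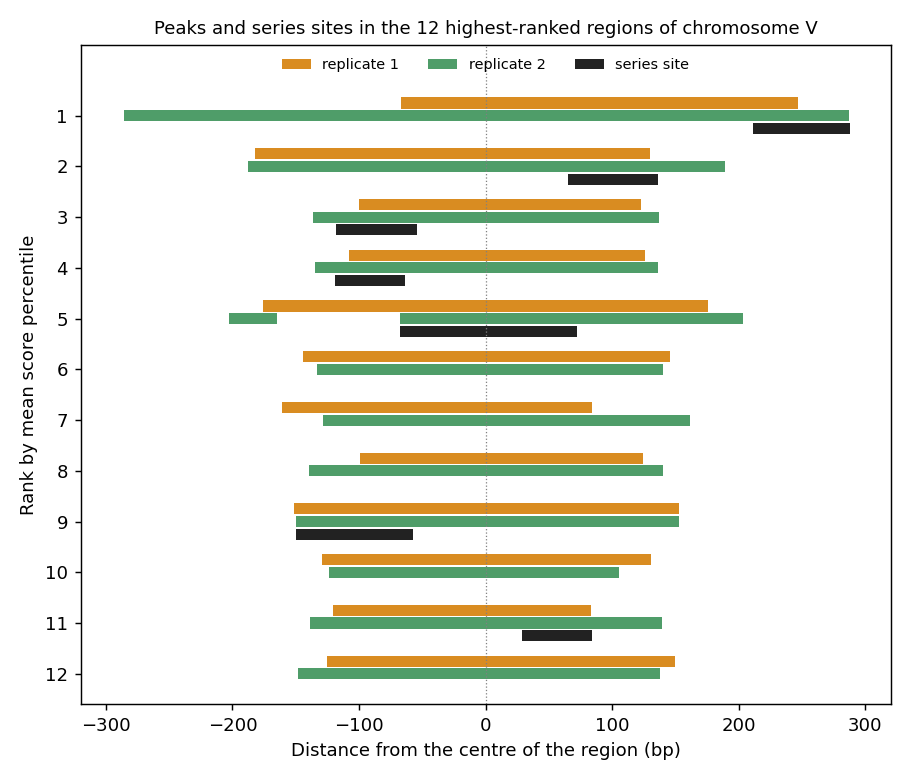
Extent of each replicate peak and series site in the 12 highest-ranked chromosome V regions, as distance in bp from the centre of the region; regions are ordered by mean score percentile. Sites were present in 7 of the 12, and of these 1 (rank 5) crossed the centre.

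Across the chromosome, 192 of the 204 regions in both lists held 1 peak of each list. Replicate 1 scored higher in 168 of them (87.5%), and the median score ratio of replicate 1 to replicate 2 was 2.08 (interquartile range 1.41 to 3.19). This reading takes both lists to be on 1 score scale, which the files do not state. Spearman's rho between the scores was 0.780 and Pearson's r was 0.823 over these 192 regions, which come from the same pair of libraries. The ratio was the most one-sided at 12271575 to 12271715, where replicate 1 scored 7.96 times higher. At the other end, the region from 5049380 to 5049787 had a ratio of 0.334. The median ratio was 2.08 in the upper and 2.09 in the lower 96 of these regions by mean percentile.

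Within these 192 regions the paired peaks lay close together. Pairs were formed by sharing at least 1 bp, so the joining rule itself keeps their positions near, and distant peaks count as regions in 1 list only. The centres of the paired peaks were a median of 19 bp apart (interquartile range 8.38 to 36.1 bp), and the starts and ends of replicate 2 lay at medians of 4.5 bp to the right and 2 bp to the left of those of replicate 1. The replicate 2 peak lay inside the replicate 1 peak in 62 regions, the reverse held in 40, and in 90 each peak extended beyond the other on 1 side. The bases in common made up a median of 81.3% of the region in the upper 96 regions by mean percentile and 51.2% in the lower 96. Regions of the upper group had a median width of 235.5 bp, against 156 bp in the lower group. Over all 204 regions in both lists, Spearman's rho of width and mean percentile was 0.572.

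**Figure D3:**
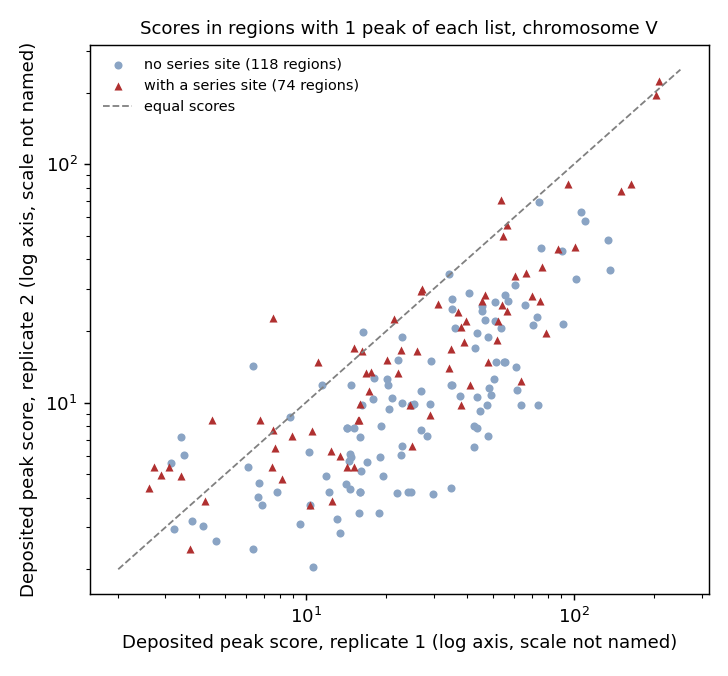
Deposited scores of replicate 1 (horizontal) and replicate 2 (vertical) on log axes for the 192 chromosome V regions with 1 peak of each list; triangles mark regions that hold a series site and the dashed line marks equal scores. Most points lie below the line, and replicate 1 scored higher in 168 regions.

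Chromosome V had fewer regions in both lists per Mb than any other autosome. It carried 9.75 of them per Mb, against 12.6 on IV, 15.4 on II, 18.1 on III and 18.9 on I. Against the other 4 autosomes together, with X left out, the density ratio was 0.607 (95% exact interval 0.520 to 0.706). There were 204 regions where 303 were expected from length (exact binomial p = 9.57e-12, adjusted p = 9.57e-11). The ratio lay between 0.506 and 0.621 in all 9 alternatives tried. The lowest of these ratios, 0.506, came from expected numbers that followed the protein-coding genes, of which V has the most (4995 in the gene table, which refers to assembly WBcel235). X had 2.37 such regions per Mb, fewer than V. The binomial test treats regions as independent, and lengths were taken from the furthest interval end.

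Peak scores on V passed the test against the other autosomes in 1 of the lists. In replicate 1, 165 of 311 peaks of V reached the median score of their list (53.1%, 47.3 to 58.7%), against 51.5% on the other autosomes (Fisher's exact p = 0.619, adjusted p = 0.774). In replicate 2, 151 of 331 reached it (45.6%, 40.2 to 51.2%), against 53.0% (Fisher's exact p = 0.0154, adjusted p = 0.0386). The replicate 2 difference did not pass for the top quartile of the list, where V had 23.0% of its peaks (adjusted Fisher's exact p = 0.168). With X among the comparison it did not pass either (adjusted Fisher's exact p = 0.120). Whether the lists differ in this was not tested.

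Regions in both lists were gathered in the middle of the chromosome. The middle section held 91 of the 204 (44.6%, 37.7 to 51.7%, exact binomial p = 0.000808 against 33.3%, adjusted p = 0.00404). The share did not pass for the peaks of replicate 2 alone (37.2%, adjusted exact binomial p = 0.242), for all regions of either list (37.9%, adjusted exact binomial p = 0.0814) or for series sites (39.1%, adjusted exact binomial p = 0.352). The left section held 55 and the right section 58, a balance that did not pass the test (exact binomial p = 0.851, adjusted p = 0.945, interval of the left share 39.2 to 58.3%). On all chromosomes 37.4% of regions in both lists lay in the middle section. On the other 4 autosomes the share was 35.9% (32.9 to 39.0%), and each of these lay between 35.5% and 36.1%. V was above them by 8.71 percentage points (Fisher's exact p = 0.0212, adjusted p = 0.0424). With the middle taken as 50% of the length, V had 67.2% there and was 14.4 percentage points above the other autosomes (adjusted Fisher's exact p = 0.000976). The difference from the other autosomes lost its call in the other 7 alternatives. It was 1.47 percentage points for the peaks of replicate 2 alone and 4.30 for those of replicate 1 alone.

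The middle section was also the part where the replicates most often found the same regions. There, 91 of 159 regions were in both lists (57.2%, 49.2 to 65.04%), against 113 of 260 in the outer sections (43.5%, 37.3 to 49.7%; Fisher's exact p = 0.00665, adjusted p = 0.0222). In the middle, 27 regions were in replicate 2 only (17.0%), against 49 of 141 in the left section (34.8%) and 36 of 119 in the right section (30.3%). Regions in replicate 1 only numbered 41 in the middle, 37 in the left and 25 in the right section. The difference of 13.8 percentage points fell to 10.7 and lost its call when regions within 500 bp were merged (adjusted Fisher's exact p = 0.0910). It was 10.2 when the runs described further on were left out (adjusted Fisher's exact p = 0.111), and it lost its call in 2 more alternatives.

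With the chromosome cut into 10 equal parts, numbered from the left end, parts 5 and 6 held 33 and 36 regions in both lists. These were 56.9% and 70.6% of all regions there. A run from 9340351 to 9344345, described further on, supplied 5 of the 33 in part 5. The share did not fall evenly outwards, with 40.9% in part 4, 42.6% in part 7 and 60.5% in part 8, which lies in the right outer section. Part 9 was the poorest, with 9 regions in both lists out of 27. Parts 2 and 9 had many regions of replicate 2 only, with 20 of 37 and 16 of 27, against 26.7% over the chromosome. Many of these came from a few short stretches. The runs described further on supplied 8, 3 and 3 of them in part 2 and 6 in part 9. Median scores in the middle were not the highest of the 3 sections. In replicate 1 the median score of regions in both lists was 29.04 in the left, 22.76 in the middle and 21.55 in the right section. In replicate 2 the medians were 11.89, 9.85 and 11.89.

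**Figure D4:**
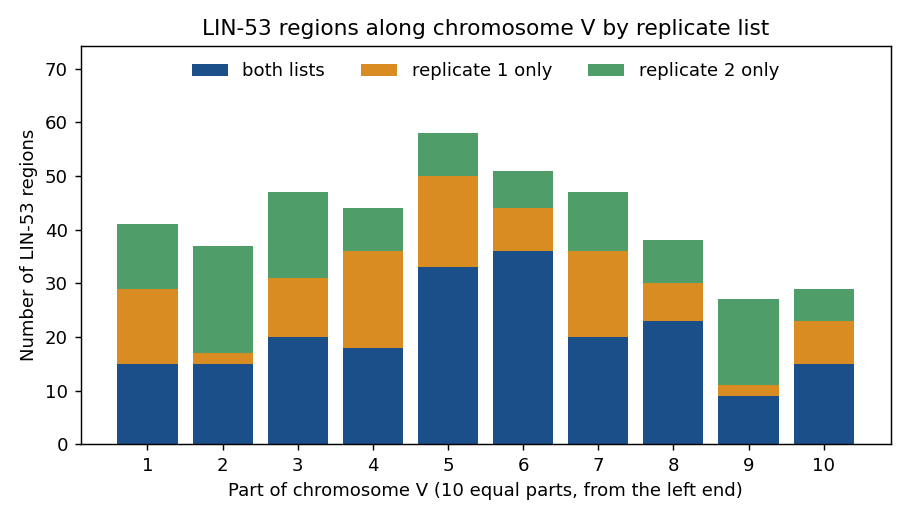
Number of LIN-53 regions in each of 10 equal parts of chromosome V from the left end, stacked by list. Regions in both lists reach 33 and 36 in parts 5 and 6 and 9 in part 9.

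On a finer scale, 4 windows of 500 kb tied for the most regions in both lists, with 10 each. They were 9000001 to 9500000, 11500001 to 12000000, 12000001 to 12500000 and 15000001 to 15500000. The last of them lies in the right outer section. In the first, 5 of the 10 came from 1 tight run, from 9340351 to 9344345, described below. The window with the most regions of any class was 14000001 to 14500000, with 21, of which 9 were in both lists. A single window had no region in both lists. It spanned 3000001 to 3500000 and had 15 regions, all in replicate 2 only, among them 2 tight runs of 8 and 3 regions described below. The window from 17000001 to 17500000 had 13 regions, of which 11 were in replicate 2 only and 1 in both lists. A tight run supplied 6 of these 11. The longest stretch with no region measured 444313 bp and began after 19199651.

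Some regions sat in tight runs. Of the 418 gaps between neighbouring regions, 83 were at most 500 bp (19.9%). There were 12 runs of 3 or more regions with such gaps, and they took up 56 of the 419 regions. Such runs were not particular to V. With runs left out, 363 of 419 regions remained on V and 1663 of 2040 on the other autosomes, so runs took a smaller part on V. Of regions in both lists, 191 of 204 remained on V and 906 of 989 on the other autosomes. Regions in replicate 2 only supplied 34 of these 56 (60.7%), regions in both lists 13 and regions in replicate 1 only 9. Put the other way, 30.4% of the regions in replicate 2 only lay in runs, against 8.74% of those in replicate 1 only and 6.37% of those in both lists. These shares describe the lists and were not tested.

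The runs were of distinct make-up. In 4 runs every region was in replicate 2 only. The largest of these spanned 3435275 to 3437310 with 8 peaks 39 to 91 bp wide and scores from 2.79 to 9.86. A neighbouring run from 3440539 to 3440865 had 3 peaks with scores from 5.05 to 7.92. The run from 5640261 to 5641427 had 6 peaks with scores up to 11.7, and the run from 17308664 to 17309752 had 6 with scores up to 12.9. Replicate 1 had no peak in any of these 4 stretches, and all 4 lay in the outer sections. Of the 112 regions in replicate 2 only, 49 lay in the left and 36 in the right section, with the 23 regions of these runs included. The outer sections make up most of the length and held 260 of all 419 regions. The 23 peaks of these 4 runs were 39 to 142 bp wide, and 2 of them scored above the replicate 2 median of regions in both lists, 10.985.

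A run in the middle section was of the opposite kind. It spanned 9340351 to 9344345 and was the longest, with 9 regions over 3995 bp. It held 9 peaks of replicate 1, with scores from 3.69 to 22.8, and 7 of replicate 2, with scores from 2.43 to 25.7. Of its regions, 5 were in both lists and 4 in replicate 1 only, and the series list placed 5 sites in it. The strong region from 9346859 to 9347180 followed 2513 bp to its right. The run from 6276997 to 6278633 had 4 peaks of replicate 1, the widest of 510 bp, and 1 of replicate 2 with a score of 2.62.

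Each of the 6 remaining runs held at least 1 region in both lists. In the run from 14038129 to 14039057, the 2 regions in both lists scored 34.4 and 46.5 in replicate 1 and 14.01 and 22.21 in replicate 2. The 2 peaks of replicate 2 beside them scored 2.62 and 14.87, so 1 of these was above the lower of the regions in both lists. In the run from 13715308 to 13715803, a region with scores of 56.6 and 24.4 was followed by 2 peaks of replicate 2 with scores of 5.02 and 8.60, each 37 bp wide. The run from 9980588 to 9981219 held a region with scores of 37.9 and 20.7, above its neighbours in either list (3.94 and 3.11). In the run from 16538117 to 16538540 the region in both lists scored 14.3 and 5.35, above its neighbour in replicate 1 (4.23) and below that in replicate 2 (10.46). In the run from 3521153 to 3521785 the region in both lists scored 3.09 and 5.37, and the peaks of replicate 2 beside it scored higher, from 6.55 to 13.06. In the run from 9089720 to 9090169 it scored 4.23 and 3.86, again below its replicate 2 neighbours (8.20 and 6.29).

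**Figure D5:**
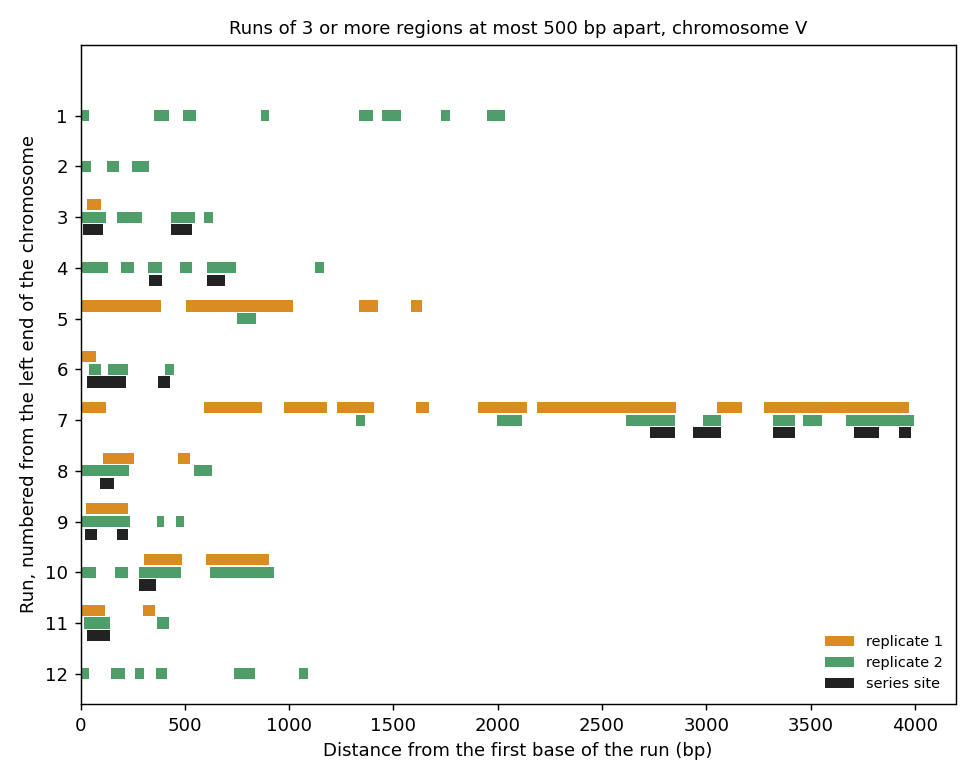
Peaks of each replicate and series sites in the 12 runs of chromosome V regions at most 500 bp apart, as distance in bp from the first base of the run; runs are numbered from the left end. Runs 1, 2, 4 and 12 have no replicate 1 peak, and run 7, from 9340351 to 9344345, has 9.

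Wide regions were few. On V, 11 of 419 regions were at least 500 bp wide (2.63%, 1.32 to 4.65%), and all 11 were in both lists. Over all chromosomes the share was 1.39%, and on the other autosomes 23 of 2040 regions were as wide (1.13%, 0.716 to 1.69%). The difference of 1.50 percentage points did not pass after adjustment (Fisher's exact p = 0.0344, adjusted p = 0.0574). Among regions in both lists alone it did, with 11 of 204 on V and 22 of 989 on the other autosomes (adjusted Fisher's exact p = 0.0353). With regions within 500 bp merged the direction turned, with 8.63% on V and 10.8% on the other autosomes (adjusted Fisher's exact p = 0.398). With the minimum at 300 bp the shares were 9.07% on V and 8.82% on the other autosomes.

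The widest region, from 724105 to 727827, measured 3723 bp. Replicate 1 called it as 1 peak with a score of 36.5, and replicate 2 as a peak of 2788 bp with a score of 18.3 and 2 short peaks of 63 and 67 bp. Its 3 series sites, 77 to 101 bp wide, covered small parts of it. The region from 11888277 to 11889131 rested on a replicate 1 peak of 855 bp with a score of 22.7, which met a replicate 2 peak of 48 bp with a score of 6.01 near its right end. The region from 19928561 to 19929406 was the most divided, with 2 peaks of replicate 1 and 6 of replicate 2, scores up to 8.06 and 10.12, and 3 series sites. The region from 18775924 to 18776692 had the higher score in replicate 2, with 8.63 and 22.9. The regions from 9343628 to 9344345 (21.99 and 25.73) and 9342538 to 9343203 (22.8 and 16.7) both belonged to the long run in the middle section. None of these 6 was among the 12 highest-ranked regions.

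Series sites were attached to 84 of the 204 regions in both lists (41.2%, 34.4 to 48.3%), against 45.2% over all chromosomes. On the other autosomes it was 454 of 989 (45.9%, 42.8 to 49.1%), a difference of -4.73 percentage points that did not pass the test (Fisher's exact p = 0.246, adjusted p = 0.352). In 4 groups of 51 regions, from the highest mean percentile down, 25, 24, 15 and 20 held a site. Regions with a site had a median score of 23.6 in replicate 1 and 15.75 in replicate 2. Those without had 24.4 and 9.78. The median score ratio of replicate 1 to replicate 2 was 1.63 with a site and 2.53 without. How the authors chose the sites is not given in the sources used here.

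Chromosome V had 110 of the 706 sites, with a median width of 87 bp. Of these, 98 touched peaks of both replicates, 10 touched replicate 2 only, 0 touched replicate 1 only and 2 touched no peak. The series score, whose scale is also not named, ran from -1.98 to 1.99 with a median of 1.87, and it was below 0 in 14 sites. It was below 0 in 6 of the 10 sites that touched replicate 2 only and in 8 of the 98 that touched both replicates. The sites without any peak lay at 8889961 to 8890016 (score 0.94) and at 18962415 to 18962472 (score 0.54). The lowest score of a site that touched replicate 2 only was -1.98, at 17870946 to 17871033, and the highest was 0.79, at 5790653 to 5790744.

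Sites covered the centre less often in the higher-ranked of the regions counted here. In 67 regions with 1 peak of each list and 1 site, the site covered the centre in 34. Among the 33 regions of higher mean percentile it did so in 11, with a median distance of 66.5 bp between the centres of site and region. Among the 34 of lower percentile it did so in 23, with a median distance of 14.75 bp. Regions of higher mean percentile were also wider, and the part of width in this was not tested. The site lay to the left of the centre in 30 regions and to the right in 37. In the leading region, from 18533382 to 18533954, the site spanned 18533879 to 18533955 at the right end of both peaks. In the region from 10897212 to 10897588 it spanned 10897465 to 10897535, also on the right. In the regions beginning at 2421546 and 2529829 it lay on the left, at 2421564 to 2421627 and 2529845 to 2529899.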

How the data were processed

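The aligner was BWA, per the submitters' processing notes. The deposited intervals name the peak caller MACS as their source. Not given in the sources used here are versions, settings, the use of the inputs and the making of the series list. Coordinates are WormBase WS220, per the file headers. The deposited score of each peak or site has no named scale, so scores of the series list and the replicate lists were not compared in size.

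Peaks sharing at least 1 bp were joined, and a score of a region is that of its highest peak in a list. Sections are 33.3% of the chromosome each, by region midpoint, with the furthest interval end in the 3 lists as its length (20919429 bp for V). Shares were compared by two-sided Fisher's exact tests, and positions by exact binomial tests (two-sided). All 95% intervals are Clopper-Pearson intervals. Adjusted p is Benjamini-Hochberg over the 10 tests, with a threshold of 0.05. In an alternative, that test's p replaced the main one among the 10. Regions are not independent replicates, and intervals cover counting error only. Mean percentile is the mean of a region's score percentiles in both full lists.

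The chromosome, tests and naming rules were chosen with earlier results of these data known, among them the density and middle share of V. Named were the 12 highest-ranked and 6 widest regions, the 5 highest of each single list, all runs of 3 or more, regions with 3 or more sites, sites lacking a peak, of which the extremes are given, and the densest windows. Other regions named were chosen after their values were seen. Input libraries have no list among the files used here. Joining was tested on simulated data. Python 3.11.15, numpy 2.4.6, pandas 2.3.3, scipy 1.17.1 and matplotlib 3.10.9 were used.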

Additional observations from a re-analysis of the deposited data

How the results depend on the processing

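The 10 results had 56 alternative values, of which 27 stayed on the same side of the threshold with the same direction. All 9 for the density of V did. The middle section held 37.9% of all regions of either list, 37.2% of the peaks when replicate 1 was left out, 42.4% when replicate 2 was left out and 39.1% of the series sites, of which all but the 42.4% were no longer past the threshold. The excess of V over the other autosomes there, 8.71 percentage points, lost its call at 7.13 with 50% reciprocal overlap, 6.38 with peaks at or above the median score, 6.75 after merging, 0.693 with all regions, 4.19 with series sites, and 1.47 to 4.30 without either replicate. The gain in regions in both lists from the outer sections to the middle, 13.8 points, lost its call at 7.92, 12.5, 10.7 and 10.2 with reciprocal overlap, peaks at or above the median score, merging, and without runs. The share of V regions in both lists relative to other autosomes, never past the threshold, turned to -2.52 (reciprocal overlap), -2.49 (merging) and -1.86 (without runs). The left share of outer regions, also never past it, turned from 48.7% to 52.4% (reciprocal overlap), 50.5% (merging), 54.2% (all regions), 51.9% and 52.0% (without replicate 1 and 2) and 55.2% (middle at 50% of the length). The score difference of V was 1.59 points in replicate 1 and -7.41 in replicate 2. Each of these tests uses 1 list, so leaving that replicate out only repeats the value of the other list, which is counted among the alternatives as turned. In replicate 2 it lost its call at -4.51 (top quartile) and -5.42 (X included). The excess of regions of at least 500 bp turned to -2.17 after merging and gained a call at 3.17 in regions in both lists. The cause was not tested for these results. Leaving out runs was chosen after seeing the data. Comparisons that need both lists have no leave-one-out value. No paired analysis was possible because only the ChIP libraries have a list among the files used here. Read depth is unknown.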
